A study of Mus musculus with 610 samples.

Results

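Notch1 and Runx1 are 2 of the 48 genes assayed by quantitative PCR in 610 single cells of the mouse thymus, and they were taken by name and followed over every cell. Notch1 is a cell-surface receptor that is cleaved on meeting its ligand. Its intracellular part then enters the nucleus, joins the DNA-binding protein RBPJ and switches on genes of the T cell program. Runx1 is a DNA-binding protein of the runt family that acts with the partner CBFb, is needed for blood stem cells to form and takes part in early thymocyte development. Both genes are known to be active as progenitors in the thymus become committed to the T lineage.

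The cells came from 4 sorted populations, and each C1 microfluidic run, named here by number, held 1 population. B6 DN1d denotes the gate Live/TCRd-/Lin-/CD44+/CD25-/CD24+/cKit- in C57BL/6J pups aged postnatal day 7 to 10, and comprised 72, 70 and 81 cells in runs 1, 2 and 3. Tcrd-/- DN1d denotes that gate and age in B6 pups with the targeted allele Tcrd tm1Mom, which lack gamma delta T cells, and comprised 1 run of 86 cells. Rag1-/- cKit- denotes CD44+/CD25-/cKit- cells, with no CD24 gate, of B6 pups with the targeted allele Rag1 tm1Mom, which cannot rearrange antigen receptor genes. These pups were younger, at postnatal day 0 to 2, and runs 1, 2 and 3 comprised 89, 52 and 82 cells. B6 DN2 denotes CD44+/CD25+/cKit+ cells of C57BL/6J pups, again at postnatal day 7 to 10, with 1 run of 78 cells. The animals pooled into a run are not named. Rag1-/- and B6 DN1d cells differ in genotype, age and gate at once, and run and group cannot be told apart.

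A gene was taken as detected in a cell when its threshold cycle (Ct) was below 24, the ceiling of the deposited values, and its level is 24 minus Ct, in PCR cycles. A reaction at the ceiling can be a cell without the RNA or one with too little to be read, and these cannot be told apart. Levels of different assays were not compared, since each primer pair has its own efficiency. The mean number of the 48 assays detected per cell was 19.2 to 20.3 in the B6 DN1d runs, 21.6 to 24.3 in the Rag1-/- runs, 30.9 for Tcrd-/- and 28.5 for DN2, while the mean level of the housekeeping gene Gapdh stayed between 14.2 and 15.6 cycles. Of the T lineage markers, Tcf7, Gata3 and Bcl11b were in the panel, all 3 were detected in every run, and their summed level per cell was 17.7 to 20.6 cycles in B6 DN1d, 24 to 27.1 in Rag1-/-, 31.7 in Tcrd-/- and 28.1 in DN2. Bcl11b stood apart in B6 DN1d run 3, at 37% of cells against 85.7% and 90.3% in the other runs of that group. The summed level of the 4 innate lymphoid markers (Id2, Zbtb16, Nfil3 and Tox) was 23.9 to 30.6 cycles per cell in the Rag1-/- runs, 9.41 to 11.1 in B6 DN1d, 16 in Tcrd-/- and 18.2 in DN2. The 4 myeloid markers in the panel summed to 2.24 to 5.35 cycles in B6 DN1d, 0 to 0.419 in Rag1-/-, 2.00 in Tcrd-/- and 6.80 in DN2. Csf1r, the receptor that defines macrophages, was detected in 2 of 78 DN2 cells and in 0 cells of the other 3 populations. The part of these markers and of the number of assays detected in the results below was not tested, except where that number enters as a covariate. No B cell marker and no gene for a sort marker was in the panel.

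In the GRCm38.p6 assembly Notch1 lies on chr2:26457902-26503822 and Runx1 on chr16:92601466-92826074, both protein-coding. The primers and amplicons of the assays are not given in the sources used here, so the exons they read, and the 2 promoters of Runx1, were not separated. RefSeq start sites gave 300-base windows, from 250 bases before to 50 after the start, for Notch1 (chr2:26503773-26504072, minus strand), for the distal Runx1 start (chr16:92826025-92826324, minus strand) and for the proximal one (chr16:92697280-92697579, minus strand). The RUNX motif TGTGGT and the RBPJ motif TGGGAA were searched on both strands. The RUNX motif was present 2 times in the distal Runx1 window and in neither other window, and the RBPJ motif was in none of the 3. Over the 32851 windows of the table, 16.8% hold TGTGGT and 25.6% hold TGGGAA, so that a match in 1 window is common. The stretch with both RUNX matches is shown because it is the only sequence of the 3 windows in which a motif of either member's own pathway was found. It lies at chr16:92826025-92826054 just after the start, reads 5′ to 3′ along the minus strand, and has the matches, in their reverse orientation, in capitals.
Runx1 distal start: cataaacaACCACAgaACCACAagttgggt
These letters are a description of the sequence and carry no measurement of binding.

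Notch1 was detected in about 1 in 3 B6 DN1d cells and in all DN2 cells. The share was 34.7%, 30.0% and 37% in the 3 B6 DN1d runs, 60.7%, 50% and 58.5% in the 3 Rag1-/- runs, 77.9% in Tcrd-/- cells (67 of 86 cells, exact 95% interval 67.7% to 86.1%) and 100% in DN2 cells (78 of 78, 95.4% to 100%). Every Rag1-/- run lay above every B6 DN1d run, and the 2 groups with 1 run lay above both. The order of the shares was B6 DN1d (33.9% ± 3.59, SD, n = 3), Rag1-/- (56.4% ± 5.65, n = 3), Tcrd-/- and DN2.

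Runx1 was detected in most cells of every population, at 69.4%, 65.7% and 63% in the B6 DN1d runs and 60.7%, 69.2% and 76.8% in the Rag1-/- runs. It was detected in 98.8% of Tcrd-/- cells (85 of 86, 93.7% to 100%) and 100% of DN2 cells (78 of 78, 95.4% to 100%). The runs of B6 DN1d (66% ± 3.25, SD, n = 3) and Rag1-/- (68.9% ± 8.08, n = 3) overlapped, and both single-run populations lay above them. The intervals of the single-run populations count the cells of a single run and cover counting error only, so they do not compare the populations.

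**Figure D1:**
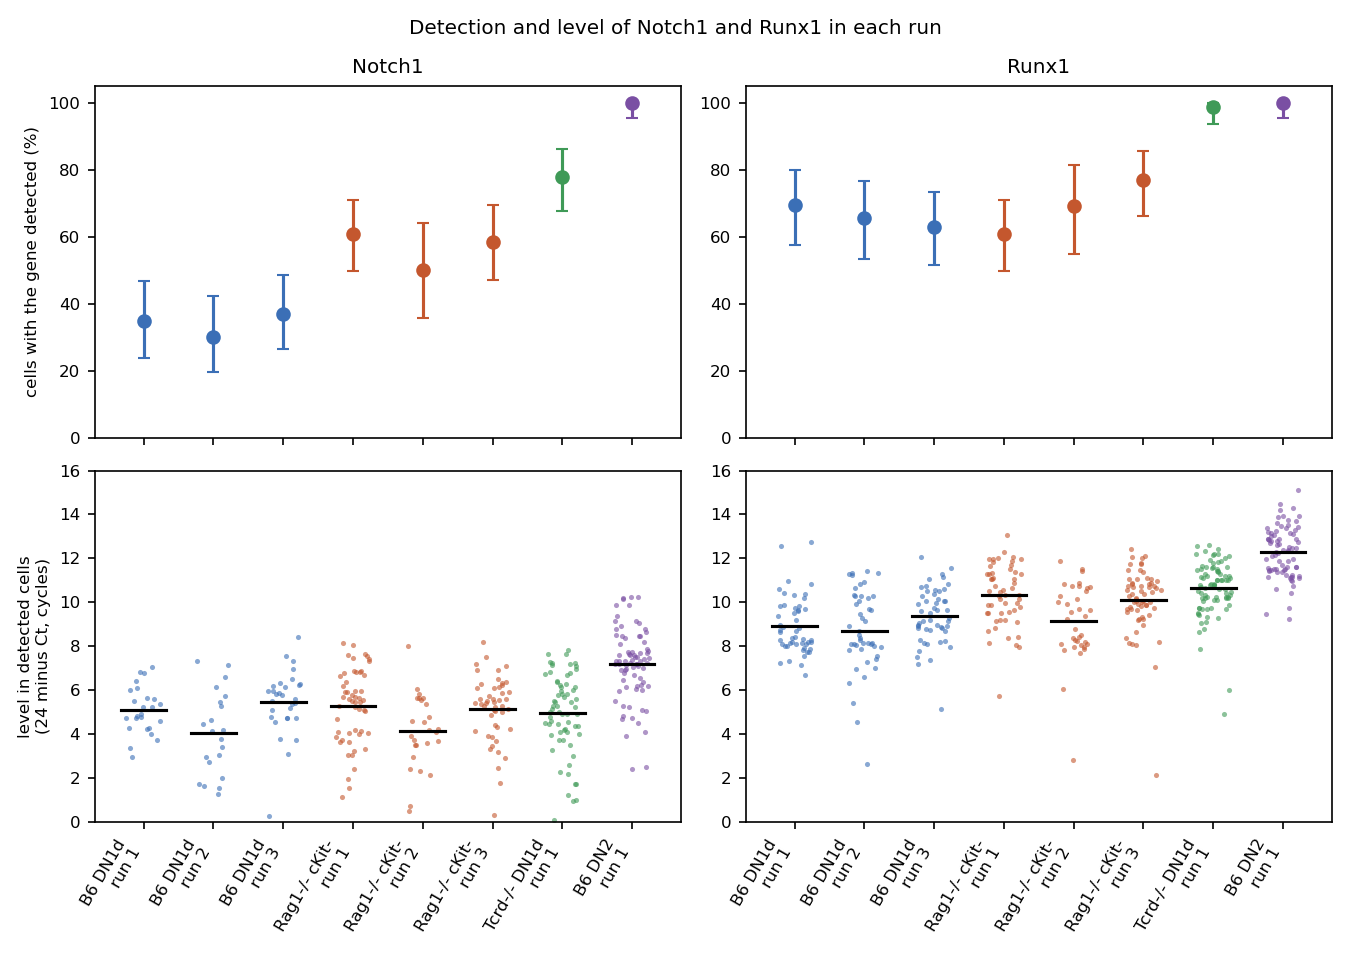
Share of cells with Notch1 (left) or Runx1 (right) detected in each run, with exact 95% intervals (top), and the level of each detected cell in cycles with the run mean as a bar (bottom). Notch1 shares run from 30.0% to 37% in B6 DN1d to 100% in DN2, and Runx1 shares are 98.8% (Tcrd-/-) and 100% (DN2).

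The shares were compared on the logit scale with limma, 1 value per run and Benjamini-Hochberg adjustment over 47 assays. The DN2 and Tcrd-/- groups have 1 run each, so nothing here measures how such runs vary. Differences that involve one of them, in shares or in levels, are therefore given as sizes without a test. Against B6 DN1d, DN2 cells were higher by 5.72 for Notch1 and by 4.40 for Runx1, where the median over all assays was 0.99. Both genes were detected in all 78 DN2 cells, so the sizes of the DN2 differences depend on the 0.5 added to each side of the logit. The lowest values under the alternatives were 4.14 and 3.26. Tcrd-/- DN1d cells were higher than B6 DN1d cells by 1.90 ± 0.47 for Notch1 (adjusted p = 0.00174) and by 3.39 ± 0.49 for Runx1 (adjusted p = 2.2e-05), in a comparison in which 55.3% of assays were higher. With the number of other assays detected in the cell as a covariate, the Notch1 difference was 0.79. The lowest Runx1 difference under any alternative was 2.07.

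Rag1-/- cells were higher than B6 DN1d cells by 0.92 ± 0.34 (SE) for Notch1 (limma, adjusted p = 0.0223), where 34% of assays were higher, and by 0.14 ± 0.34 for Runx1 (adjusted p = 0.744). The Notch1 call was lost without B6 DN1d run 1 (adjusted p = 0.0776), B6 DN1d run 2 (0.112) or Rag1-/- run 3 (0.0928), with the other assays as a covariate (0.62, adjusted p = 0.0893) and with detection set at Ct below 20 (0.65, adjusted p = 0.177). The direction was the same in each of these. DN2 cells were higher than Rag1-/- cells by 4.80 ± 0.47 for Notch1 (adjusted p = 2.0e-08) and by 4.26 ± 0.49 for Runx1 (adjusted p = 1.2e-07), and 40.4% of assays were higher there.

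Between Tcrd-/- and Rag1-/- cells the Notch1 difference of 0.99 ± 0.47 missed the threshold (adjusted p = 0.0795), and it passed without Rag1-/- run 1 (adjusted p = 0.0413). Runx1 was higher in the Tcrd-/- cells by 3.24 ± 0.49 (adjusted p = 7.3e-06), with 42.6% of assays higher. DN2 and Tcrd-/- cells have 1 run each, so their shares of 100% and 77.9% for Notch1 and of 100% and 98.8% for Runx1 are given without a test.

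Where Notch1 was detected, its mean level was 5.09, 4.06 and 5.47 cycles in the B6 DN1d runs, 5.28, 4.13 and 5.17 in the Rag1-/- runs, 4.97 in Tcrd-/- and 7.19 in DN2. The first 3 populations overlapped almost fully, although their shares ran from 30.0% to 77.9%. In DN2 the lowest, median and highest cells stood at 2.42, 7.33 and 10.2 cycles, against 0.0935, 5.12 and 7.85 in Tcrd-/-. The differences from B6 DN1d were 2.32 cycles in DN2 and 0.09 in Tcrd-/- cells. That of Rag1-/- cells was -0.01 ± 0.60 cycles (SE) and did not pass (limma over 30 assays, adjusted p = 0.981).

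The mean Runx1 level in detected cells was 8.93, 8.71 and 9.39 cycles in the B6 DN1d runs and 10.3, 9.15 and 10.1 in the Rag1-/- runs. The Tcrd-/- mean was 10.6 and the DN2 mean 12.3, where the lowest, median and highest cells stood at 9.22, 12.4 and 15.1. The DN2 run lay above every other run, and its lowest cell lay above the mean of B6 DN1d runs 1 and 2. Runx1 was higher in DN2 than in B6 DN1d by 3.27 ± 0.80 cycles (adjusted p = 0.0229), where 10% of assays were higher. That call was lost without B6 DN1d run 1 (adjusted p = 0.0943) or Rag1-/- run 3 (0.0601). The differences of 1.63 ± 0.80 in Tcrd-/- (adjusted p = 0.192) and 0.85 ± 0.56 in Rag1-/- cells (adjusted p = 0.348) did not pass, in comparisons where 6.67% and 10% of assays were higher.

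The 2 assays stood differently against the ceiling. No detected Runx1 value lay within 2 cycles of it in any run. For Notch1 such values were 5 of 21 in B6 DN1d run 2 and 0 to 6 cells in each other run. In B6 DN1d cells the Notch1 share moved with the number of other assays detected in the cell. It was 15.6% (10 of 64 cells, exact 95% interval 7.76% to 26.9%) in cells with up to 14 other assays, 33.8% with 15 to 19, 33.3% with 20 to 24 and 63.6% (21 of 33, 45.1% to 79.6%) with 25 to 29. In Rag1-/- cells it was 48.4%, 61.5% and 58.8% from 15 to 19 other assays upwards.

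Over the same bins the Runx1 share ranged less than that of Notch1 in B6 DN1d cells and more in Rag1-/- cells. It was 53.1% (34 of 64, 40.2% to 65.7%), 67.7%, 68.5% and 75.8% in B6 DN1d cells, and 51.6%, 70.8% and 82.4% in Rag1-/- cells. At 25 to 29 other assays the Notch1 shares of B6 DN1d (63.6%) and Rag1-/- cells (58.8%, 44.2% to 72.4%) had overlapping intervals. In the same bin Tcrd-/- cells stood at 82.8% (24 of 29, 64.2% to 94.2%) for Notch1 and 100% (29 of 29) for Runx1, and DN2 cells at 100% (53 of 53) for both. These intervals pool the cells of a group and cover counting error only.

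**Figure D2:**
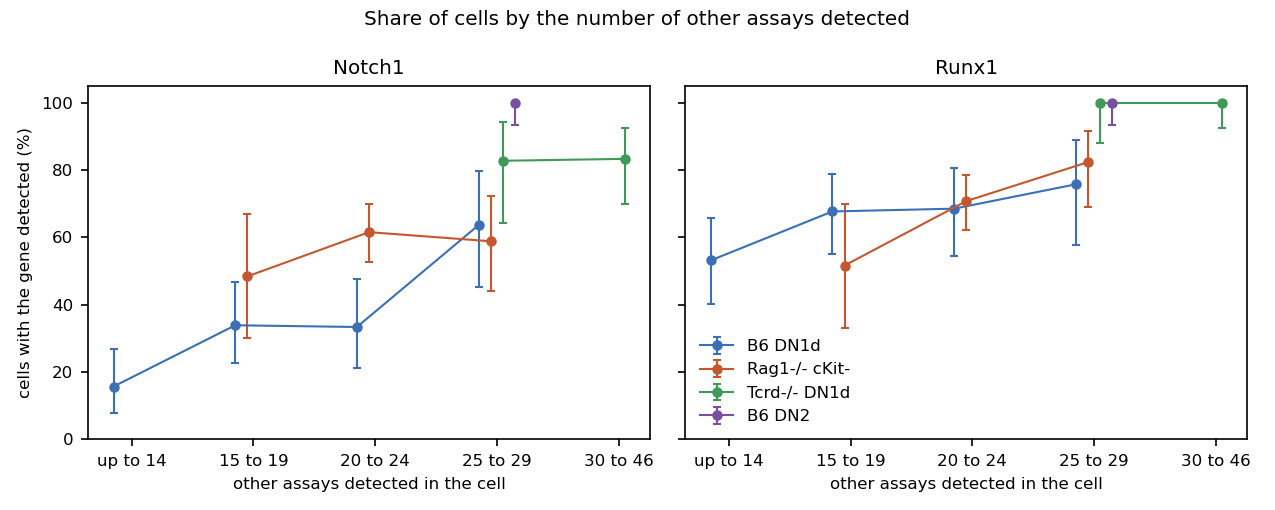
Share of cells with Notch1 (left) or Runx1 (right) detected, by the number of other assays detected in the same cell, with exact 95% intervals, for bins of at least 20 cells. In B6 DN1d the Notch1 share goes from 15.6% to 63.6% and the Runx1 share from 53.1% to 75.8%.

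All 78 DN2 cells had both genes. In Tcrd-/- cells 67 of 86 had both, 18 had Runx1 only, 1 had neither and 0 had Notch1 only, which allows a share of up to 3.49%. The other populations held all 4 states. B6 DN1d runs 1 to 3 had both genes in 29.2%, 20.0% and 28.4% of cells, Notch1 only in 5.56%, 10.0% and 8.64%, Runx1 only in 40.3%, 45.7% and 34.6%, and neither in 25.0%, 24.3% and 28.4%. In Rag1-/- runs 1 to 3 both were found in 33.7%, 32.7% and 42.7%, Notch1 only in 27%, 17.3% and 15.9%, Runx1 only in 27%, 36.5% and 34.1%, and neither in 12.4%, 13.5% and 7.32%. Every Rag1-/- run had more Notch1-only cells and fewer cells with neither gene than every B6 DN1d run. The difference in these shares was not tested.

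**Figure D3:**
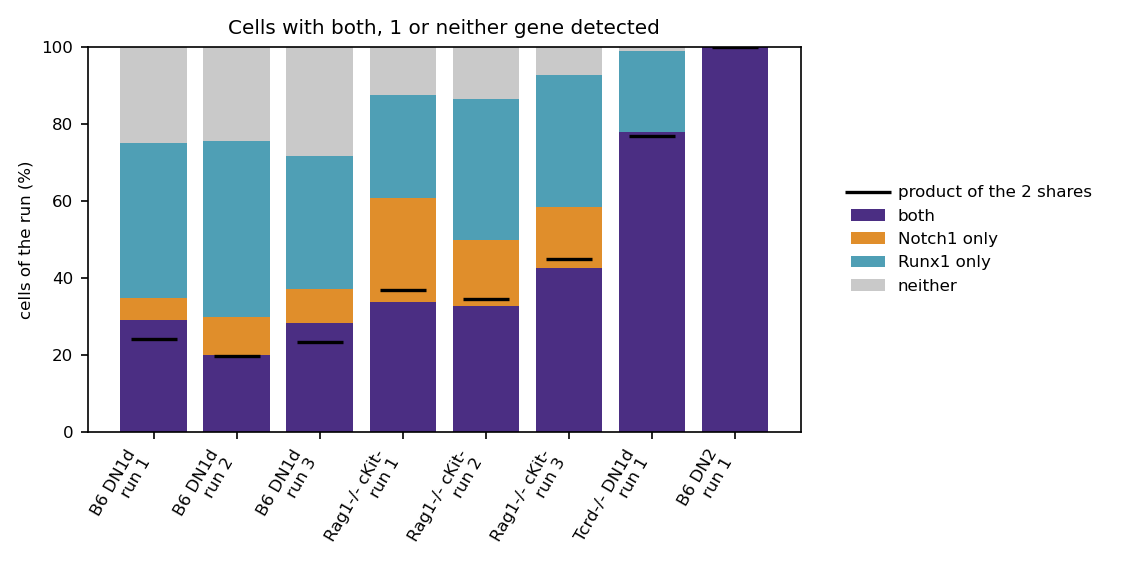
Stacked shares of cells with both genes, Notch1 only, Runx1 only or neither in each run, with a black line at the product of the 2 genes' shares. The share with both is at or above the line in the 3 B6 DN1d runs (20.0% to 29.2% against 19.7% to 24.1%) and below it in the 3 Rag1-/- runs (32.7% to 42.7% against 34.6% to 45%).

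In B6 DN1d runs 1 to 3, Runx1 was detected in 84%, 66.7% and 76.7% of Notch1-detected cells and in 61.7%, 65.3% and 54.9% of the others. In Rag1-/- runs 1 to 3 it was detected in 55.6%, 65.4% and 72.9% of Notch1-detected cells and in 68.6%, 73.1% and 82.4% of the others. The sign thus differed between the populations in every run, with natural log odds ratios of 1.10, 0.04 and 0.95 in B6 DN1d and -0.54, -0.34 and -0.51 in Rag1-/-. Neither mean passed the threshold, at 0.70 ± 0.36 (SE, adjusted p = 0.103) and -0.46 ± 0.21 (adjusted p = 0.197) among the genes tested with Notch1. The difference between the populations, -1.16 ± 0.48, missed it too (adjusted p = 0.0860), and passed without B6 DN1d run 2 (-1.49, adjusted p = 0.0470).

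Cells with both genes had the most other assays detected in B6 DN1d, on average 21.4 to 23.2 per run against 14.6 to 17.4 in cells with neither. In Rag1-/- cells the same means were 21 to 23.9 and 15.5 to 20.2. Among cells with both genes, the levels of Notch1 and Runx1 had Spearman correlations across cells of 0.55, 0.64 and -0.08 in the B6 DN1d runs (21, 14 and 23 cells), -0.10, 0.07 and -0.19 in the Rag1-/- runs (30, 17 and 35 cells), 0.15 in Tcrd-/- (67 cells) and 0.59 in DN2 (78 cells). In DN2 the levels of Notch1 and Runx1 also followed that of Gapdh, at 0.73 and 0.75, and they did so in B6 DN1d run 2, at 0.71 and 0.70. In the other 6 runs the correlations with Gapdh lay between -0.26 and 0.34. The cells of a run share its reagents and the cell's total RNA, and the correlations are descriptions.

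The genes detected in the same cells as Notch1 were examined in the 2 populations with 3 runs, among assays found in 5% to 95% of cells. In B6 DN1d 16 of 40 assays (40%) passed the test, all 16 detected with Notch1 more often. The largest log odds ratios were Lef1, a DNA-binding protein of the Wnt pathway (1.30 ± 0.36, SE, adjusted p = 0.0151), Gzma, the granule protease granzyme A (1.24), Il17re, a receptor subunit for interleukin 17C (1.23), and Tcf7, the T lineage factor TCF1 (1.12). Lef1 was found in 64%, 71.4% and 73.3% of Notch1-detected cells in runs 1 to 3 and in 38.3%, 36.7% and 37.3% of the others, so that the groups of runs did not overlap. Tcf7 was found in 84%, 71.4% and 76.7% against 51.1%, 53.1% and 51%.

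The kinases Blk and Syk (1.03 and 1.02) and the E protein Tcf12, also called HEB (0.99), completed the named genes. Tcf12 had a value below 0 in run 2 (-0.10), and the other 6 named genes were above 0 in all 3 runs. The values of 32 of the 40 assays were above 0, with a median log odds ratio of 0.72. With the number of other assays in the cell as a covariate the median was 0.07 and 0 of the 40 passed, Lef1 standing at 0.88 ± 0.31 (adjusted p = 0.935) and Blk at -0.30. The count was also 0 without B6 DN1d run 2 or 3, and 8 without run 1.

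In Rag1-/- cells 0 of 30 assays (0%) passed with Notch1 by limma, and 9 had an unadjusted p under 0.05. Syk (1.17 ± 0.30, adjusted p = 0.106) and Cdh1, which encodes the adhesion protein E-cadherin (1.14 ± 0.26, adjusted p = 0.106), had positive values in all 3 runs. Lef1, the leading partner of Notch1 in B6 DN1d, had log odds ratios of -0.73, -0.54 and -0.59 in the Rag1-/- runs. Between the populations 7 of 29 assays (24.1%) differed, 1 higher and 6 lower in Rag1-/- cells. Cdh1 was the one higher (1.70 ± 0.47, adjusted p = 0.0115). Il17re (-2.09 ± 0.51, adjusted p = 0.00815), Blk (-2.01 ± 0.58, adjusted p = 0.0125) and Lef1 (-1.92 ± 0.45, adjusted p = 0.00815) were among those lower. With the other assays as a covariate 0 of the 29 passed, and the counts were 4 and 3 without B6 DN1d runs 2 and 3 and 11 without Rag1-/- run 2.

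With Runx1 7 of 40 assays (17.5%) passed in B6 DN1d cells, 6 detected with it more often and 1 less often. The 6 were Zbtb16, the innate lymphocyte factor PLZF (1.12 ± 0.33, adjusted p = 0.0190), Gpr183, an oxysterol receptor that guides migration (1.11), Spi1, the myeloid and progenitor factor PU.1 (1.10), Egr2, a factor induced by antigen receptor signals (0.95), the T cell receptor gamma assay Vg2-Jg1 (0.94) and the cell cycle kinase Cdk6 (0.94). Zbtb16 and Spi1 were rare, found in 6, 9 and 3 cells and in 2, 4 and 10 cells of the 3 runs. Gpr183 was found in 42.0%, 39.1% and 51% of Runx1-detected cells and 9.09%, 20.8% and 33.3% of the others. E2f2, a cell cycle transcription factor, was found less often with Runx1 (-0.90 ± 0.33, adjusted p = 0.0477), in 84%, 78.3% and 80.4% of Runx1-detected cells against 95.5%, 91.7% and 90%.

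Zbtb16 and Cdk6 had values below 0 in run 2 (-0.01 and -0.39), and the other 5 had the same sign in all 3 runs. With the other assays as a covariate 13 assays passed, 8 with positive and 5 with negative values, and 5 of the 7 were among them. The count was 0 without B6 DN1d run 1 or 3 and 3 without run 2.

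In Rag1-/- cells 12 of 30 assays (40%) passed with Runx1, 9 detected with Runx1 more often and 3 less often, each with the same sign in all 3 runs. Il17re had a log odds ratio of 2.95 ± 0.45 (adjusted p = 0.0204) and was found in 48.1%, 38.9% and 55.6% of Runx1-detected cells against 2.86%, 6.25% and 0% of the others. Zbtb16 (2.45 ± 0.24, adjusted p = 0.0110) was found in 88.9%, 61.1% and 81% against 31.4%, 12.5% and 26.3%. For both genes every run's Runx1-detected cells lay above every run's undetected cells.

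Ccr9, the receptor for the thymic chemokine CCL25 (2.59 ± 0.59, adjusted p = 0.0284), Blk (2.34) and Sox13, an HMG box factor of gamma delta T cells (2.01), were seldom detected without Runx1. Blk was found in 33 of the 153 cells with Runx1 and 0 of the 70 without it, which allows a share of up to 4.29% there. Sox13 was found in 25 and 0 of these cells, and Ccr9 in 66 and 2. In Rag1-/- run 2 Blk and Ccr9 were found in 3 cells each and Sox13 in 2. Bcl11b, a factor needed for T lineage commitment (1.40), Maf, a transcription factor of interleukin 17 producing cells (1.29), and Cdk6 (1.15), named after its values were seen, were higher too.

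Cdh1 went the other way (-2.31 ± 0.33, adjusted p = 0.0204), found in 20.4%, 22.2% and 15.9% of Runx1-detected cells against 85.7%, 68.8% and 57.9% of the others, with no overlap between the runs. Syk (-1.13) and Bhlhe40, a repressor of the basic helix-loop-helix family (-0.92), were lower as well. With the other assays as a covariate 15 passed, 11 of the 12 among them. Without Rag1-/- run 1 the count was 0, while the 10 of these genes followed through each alternative kept their sign, from 2.89 (Il17re) to -1.94 (Cdh1). The count was 17 without run 2 and 8 without run 3.

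**Figure D4:**
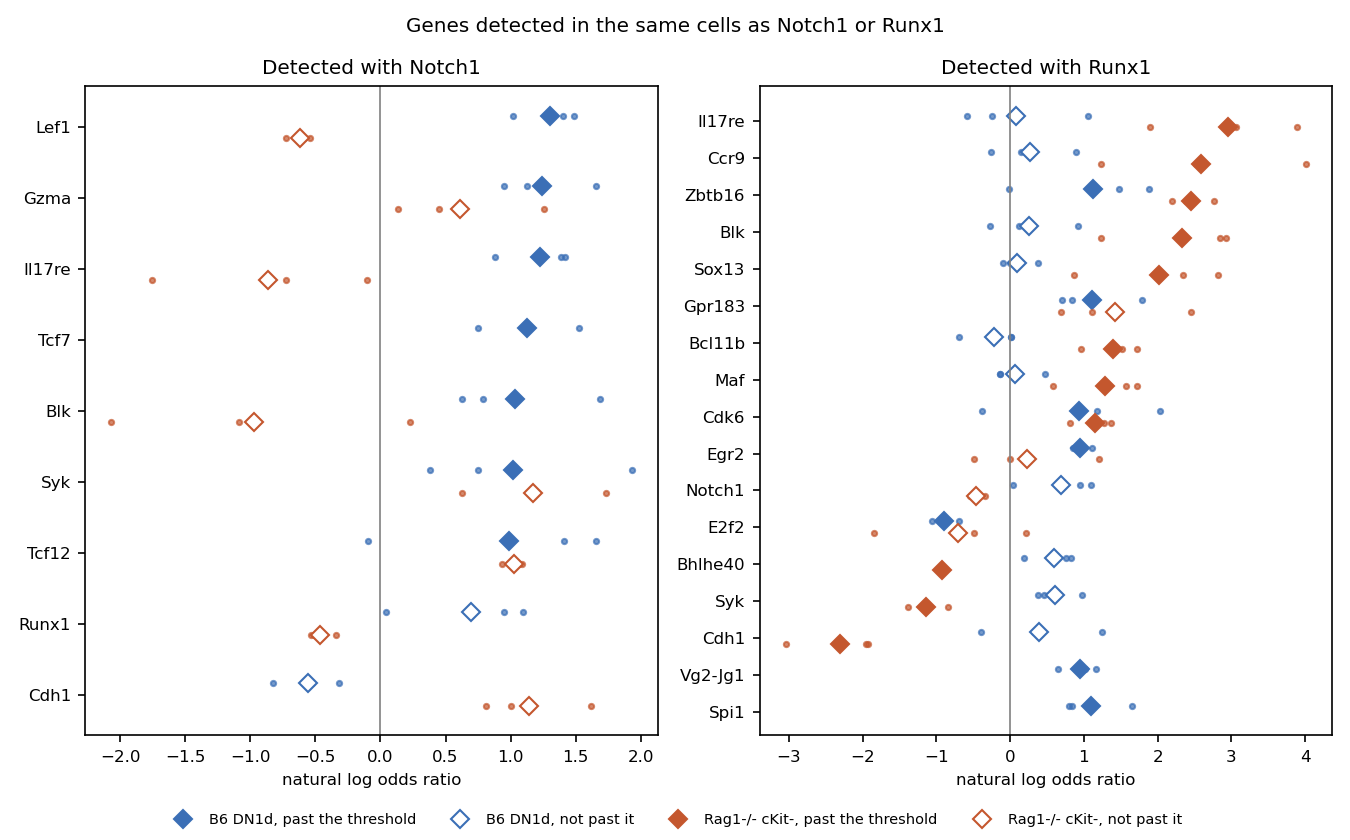
Natural log odds ratios of being detected in the same cell as Notch1 (left) or Runx1 (right), as the mean over 3 runs (diamonds, filled where the adjusted p was under 0.05) and each run (dots), for the genes named. In the right panel Il17re to Sox13 lie near 0 in B6 DN1d, with the exception of Zbtb16, and between 2.01 and 2.95 in Rag1-/-.

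The partners of Runx1 differed between the populations for 10 of 29 assays (34.5%), 6 higher and 4 lower in Rag1-/- cells. The higher ones included Il17re (2.87 ± 0.58, adjusted p = 0.00159), Ccr9 (2.32), Blk (2.08), Sox13 (1.92) and Bcl11b (1.62), whose log odds ratios in B6 DN1d lay between -0.22 and 0.27. The lower ones were Cdh1 (-2.70 ± 0.53, adjusted p = 0.00159), Syk (-1.74), Bhlhe40 (-1.51) and Gzma (-1.41), the last named after its values were seen. With the other assays as a covariate 9 of the 10 passed again, Gzma being the exception (-0.29). Without B6 DN1d run 2 the count was 0, and it was 7 to 14 with any other run left out.

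The named partners of Runx1 were then described by the 4 states of Rag1-/- cells. They were named from co-detection with Runx1 in these same runs, so their split by Runx1 is no further result. Il17re was found in 38.3% ± 19.8 (SD, n = 3 runs) of cells with both genes and 56.6% ± 2.63 of Runx1-only cells, and in 1.39% ± 2.41 of Notch1-only cells and 4.76% ± 8.25 of cells with neither. Zbtb16 followed Runx1 alike with and without Notch1, at 77.1% ± 11.3 and 77.2% ± 17.4, against 23.9% ± 20.9 in Notch1-only cells. Cdh1 was found in 83.3% ± 12.2 of Notch1-only cells, 49.6% ± 20.6 of cells with neither, 26.7% ± 8.78 of cells with both and 10.6% ± 10.5 of Runx1-only cells. Bhlhe40 was also most frequent in Notch1-only cells, at 87.7% ± 15.1 against 48.2% ± 23.8 to 56.4% ± 2.81 in the other states. The cells behind these states were 82 with both, 46 with Notch1 only, 71 with Runx1 only and 24 with neither. By run, Notch1-only cells were 24, 9 and 13, and cells with neither were 11, 7 and 6. Zbtb16 is also 1 of the 4 innate lymphoid markers, whose summed level was highest in the Rag1-/- runs, and their part in this pattern was not tested.

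**Figure D5:**
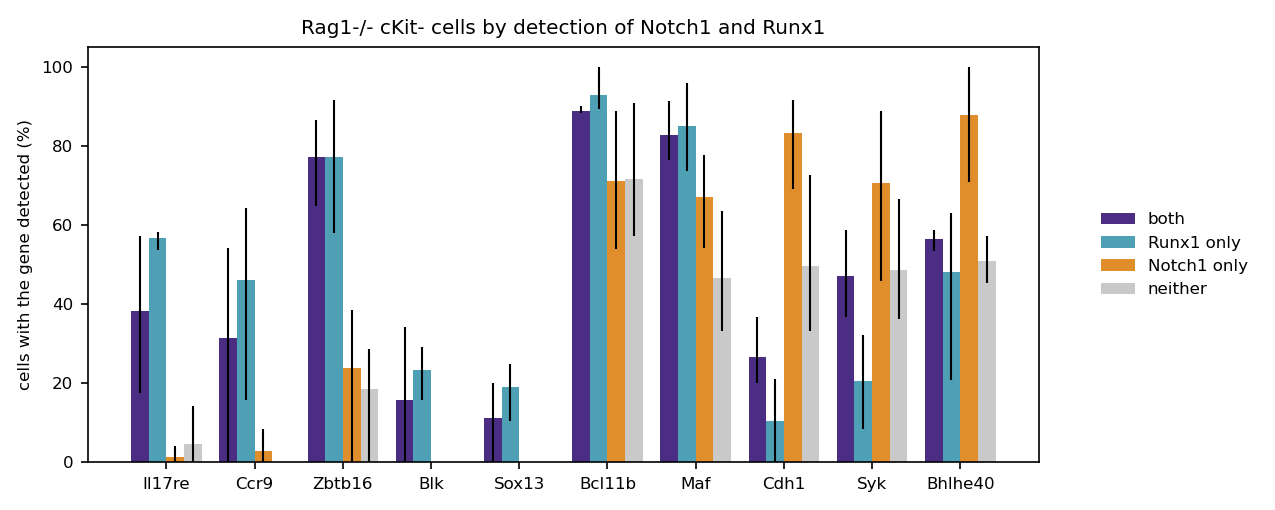
Share of Rag1-/- cKit- cells with each gene detected, by detection of Notch1 and Runx1 (bars, mean of 3 runs, with lines from the lowest to the highest run). The genes were named from co-detection with Runx1 in these same runs. Il17re, Ccr9, Blk and Sox13 stand at 0% to 4.76% where Runx1 was undetected, and Cdh1 is highest, at 83.3%, in Notch1-only cells.

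In the Tcrd-/- run, where Runx1 was undetected in 1 cell, the cells were compared by Notch1 alone. Bhlhe40 was found in 1.49% of the 67 Notch1-detected cells (exact 95% interval 0.0378% to 8.04%) and 42.1% of the 19 others (20.3% to 66.5%). Gzma was found in 85.1% (74.3% to 92.6%) and 42.1% (20.3% to 66.5%), and Blk in 97.0% (89.6% to 99.6%) and 63.2% (38.4% to 83.7%). Bhlhe40 was thus detected less often with Notch1 in this run, as it was in the 3 B6 DN1d runs, with log odds ratios of -0.03, -0.60 and -1.09 (mean -0.58, adjusted p = 0.188). In the 3 Rag1-/- runs they were 1.33, 0.50 and 0.33 (mean 0.72, adjusted p = 0.190). Within the 1 Tcrd-/- run there is no test. The cells without Notch1 but with Runx1 had 27.3 other assays detected on average and those with both 29.8.

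By the mean absolute difference in share over the 8 runs, the gene most like Notch1 was Tcf3 E47, a splice form of the E protein gene Tcf3 (3.27 percentage points), then Mcm2, a subunit of the replication helicase (4.67), and Cdk6 (9.02). Tcf3 E47 was detected in 27.8%, 32.9% and 33.3% of cells in the B6 DN1d runs, 61.8%, 48.1% and 65.9% in the Rag1-/- runs, 80.2% in Tcrd-/- and 100% in DN2. Mcm2 differed most from Notch1 in the Tcrd-/- run, at 60.5%. The genes most like Runx1 were less close: Tox, an HMG box factor (8.73 points), Maf (10.7) and Tcf12 (12.2). Tox was detected in 54.2% to 61.7% of B6 DN1d cells and 76.9% to 89.9% of Rag1-/- cells, and Maf in 60.3% of DN2 cells.

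Of 12 listed genes of the Notch pathway and of T lineage specification downstream of it, 4 were in the panel: Tcf7, Gata3, Bcl11b and Lef1. The other listed genes, among them Notch3, Rbpj, Hes1, Dtx1, Nrarp and Ptcra, were not assayed. In DN2 Tcf7 was detected in 100% of cells against 60.5% ± 1.96 in B6 DN1d, and Lef1 in 7.69% against 48.3% ± 1.98. Gata3 was at 100% against 98.6% ± 1.43 and Bcl11b at 87.2% against 71% ± 29.5. The median difference was 0.86 on the logit scale, against 0.99 over all 47 assays. In Tcrd-/- against B6 DN1d the median was 2.18 against 1.34. In Rag1-/- against B6 DN1d Tcf7 was higher (95.4% ± 3.30) and Lef1 lower (29.1% ± 13.1), with a median of 0.54 against 0.41. Of all 47 assays, 34% were higher there. Lef1 thus moved opposite to Notch1 in both the DN2 and the Rag1-/- comparison. In Tcrd-/- cells Lef1 was at 91.9% against 48.3% in B6 DN1d, and so moved in the same direction as Notch1.

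Of 8 listed partners and regulated genes of Runx1, 5 were in the panel. The progenitor factors Myb and Spi1 were higher in DN2 than in B6 DN1d, Myb at 100% against 46.6% ± 8.73 and Spi1 at 80.8% against 6.95% ± 4.90. Ets1 was at 100% against 99.5% ± 0.802, and Gata3 and Bcl11b are given above. The list's median was 0.97 against 0.99 for all assays. In Tcrd-/- cells the median was 1.06 against 1.34. Myb was there at 91.9%, Bcl11b at 98.8%, Spi1 at 3.49%, and Ets1 and Gata3 at 100%. In Rag1-/- cells Myb (6.50% ± 1.75) and Spi1 (0.781% ± 0.678) were lower and the median was 0.35 against 0.41. Runx1 itself did not differ past the threshold in that comparison.

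The median difference of the 3 E protein assays from B6 DN1d was 3.23 in DN2, against 0.99 over all assays. In Tcrd-/- cells it was 2.16 against 1.34. Tcf3 E47 and Tcf12 were higher in Rag1-/- cells (median 1.13 against 0.41), where 34% of all assays were higher. Tcf12 was detected in 46% ± 5.32 of B6 DN1d cells, 77.7% ± 7.67 of Rag1-/- cells, 91.9% of Tcrd-/- cells and 96.2% of DN2 cells. Of the 3, Tcf3 E12 did not pass in Rag1-/- against B6 DN1d cells (limma, adjusted p = 0.744).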

How the data were processed

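The deposited table holds Ct values, not normalised, for 48 assays and 610 cells. Per the labels' protocols, cells were captured, lysed and reverse transcribed on a Fluidigm C1, preamplified for 18 cycles with pooled primers and read by qPCR of 30 cycles with EvaGreen. The sources used here do not say how the authors called Ct or set the ceiling of 24, and 50.5% of the 29280 deposited values stand at it.

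The run was the replicate and gave 1 value per gene: the logit of the share detected (0.5 added to each side), the mean level over detected cells (assays with at least 5 detected cells in every run), or the natural log odds ratio of detection with Notch1 or Runx1 (0.5 added to each entry). limma 3.58.1 in R 4.3.3 fitted all 8 runs together (4 residual degrees of freedom), or 1 population's 3 runs for co-detection, with Benjamini-Hochberg adjustment and a threshold of 0.05. Moderation gave 20.0 total degrees of freedom for detection, 11.7 for level, 80 for co-detection in B6 DN1d, where the spread is in effect pooled over genes, and 4.4 and 4.3 in Rag1-/-. The runs' spread behind every p-value may be technical. Single shares carry exact (Clopper-Pearson) 95% intervals, and where no cell was positive the upper limit is 3 cells divided by the total, which like the intervals reflects counting error alone.

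Alternatives were other Ct limits, added constants, filters and reference to Gapdh, the number of other assays as a covariate, fits of fewer or more groups, and each run left out. Named genes were Notch1 and Runx1, in each co-detection table the 8 largest and 3 lowest log odds ratios past the threshold, the 3 genes with the most similar shares, and list members. The counts include a further gene named by this rule that is not reported here. Members and lists were chosen with earlier results of these data known. The procedure was tested on simulated data. The co-detection simulation built in no cell-wide differences in detection and no run differences in the odds ratios, so it does not cover them. Tables were made with pandas 2.3.3, numpy 2.4.6 and scipy 1.17.1 under Python 3.11.15, and plots with matplotlib 3.10.9. RefSeq (GRCm38.p6) gave positions and promoter sequences.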

Additional observations from a re-analysis of the deposited data

Results flagged for a closer look

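Each value below is a co-detection log odds ratio in Rag1-/- cKit- minus that in B6 DN1d cells, looked at again because the difference itself passed limma's test. With Notch1, Cdh1 differed by 1.70, Il17re by -2.09 and Blk by -2.01, and none of these 3 passed with the other assays as a covariate. With Runx1, Il17re differed by 2.87, Ccr9 by 2.32, Blk by 2.08, Sox13 by 1.92 and Bcl11b by 1.62, and Cdh1 differed by -2.70, Syk by -1.74 and Bhlhe40 by -1.51. All 8 also passed with the covariate. Without B6 DN1d run 2 none of the 29 assays passed with Runx1. Il17re, Blk and Cdh1 thus differed in opposite directions with the 2 members, though with Notch1 only without the covariate did they pass. The populations also differ in age, genotype and gate, and these cannot be told apart.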

How the results depend on the processing

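Of 298 alternative values for the members and the counts, 254 kept their direction and their side of the threshold (or stayed within 1.5 times for a count). These values include the comparisons with single-run groups, which are given above without a test. The Notch1 difference in detection between Rag1-/- and B6 DN1d was 0.65 with Ct below 20, 0.62 with the other assays as a covariate and 0.83 to 1.04 with 1 run left out. For Runx1 it was -0.36 with the covariate and -0.0464 to 0.330 with 1 run left out. The Notch1 difference between Tcrd-/- and B6 DN1d was 0.79 with the covariate, and between Tcrd-/- and Rag1-/- 0.86 to 1.07 with 1 run left out.

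For the level of Notch1 in DN2 against B6 DN1d the value was 5.52 over all cells, undetected ones at 0, 2.32 with at least 10 detected cells per run and 1.91 to 2.61 with 1 run left out. In Tcrd-/- it was -0.26 relative to Gapdh, 2.20 over all cells and -0.31 to 0.39, and in Rag1-/- 0.13 for medians, 1.09 over all cells and -0.42 to 0.35. For Runx1 it was 3.27 in DN2 with only the 2 groups, 3.12 to 3.46 with 1 run left out, and 4.57 over all cells in Tcrd-/-. Over all cells the level includes detection by construction. Over all assays the calls of level went from 3 to between 2 and 26 for Rag1-/- against B6 DN1d.

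Partners of Notch1 in B6 DN1d went from 16 to 0 with the covariate (Blk -0.30), to 4 in 1 fit over both groups and to 0 to 8 with 1 run left out. In Rag1-/- they were 1 with Ct below 22 and 2 in 1 fit, and the differing partners were 0 with the covariate and 3 to 11 with 1 run left out. Partners of Runx1 in B6 DN1d were 4 in cells with at least 10 assays, 13 with the covariate, 0 in 1 fit and 0 to 3 with 1 run left out, and in Rag1-/- 0 to 17. The differing ones were 0 to 14, and the Notch1 and Runx1 difference -1.49 to -0.96. Of 280 values for named partners, 180 kept their side of the threshold, 99 did not and 1 turned. The cause was not tested. No paired analysis was possible because run numbers only name the runs and pair nothing across groups.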
